A study of Mus musculus with 7 samples.

Results

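The 8 genes described here encode the receptors of platelet-derived growth factor (Pdgfra and Pdgfrb), the related receptor Kit, the growth factors Pdgfa, Pdgfb, Pdgfc and Pdgfd, and the Kit ligand Kitl. They were found by their symbols, and all 8 were present among the 19257 genes of the table. Kit was selected on its difference between the groups in these same libraries, as one of the higher genes of smallest p, and the others were added as its receptor and ligand family. The differences of the 8 genes between the groups are therefore given below as a description without a test, and the number of genes called over the whole table stands beside them as background. The libraries came from endpoint mouse brain tumors that had been started by in utero electroporation of Cas9 with guides to tumor suppressor genes, Trp53 and Nf1 included, into progenitors of the lateral ventricle, with a piggyBac GFP reporter. The 3xCR group (3 tumors, replicates 2, 3 and 4) carried these constructs alone, and the GPC6 group (4 tumors, replicates 1 to 4) carried in addition a piggyBac construct that overexpressed GPC6, a heparan sulfate proteoglycan of the cell surface. The mice were of CD-1 and C57BL/6 backgrounds and of both sexes, each library came from 1 brain, and neither the age nor the sex of a single animal is given. Both groups thus share the targeted genes, and brain without the guides was not analysed here.

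Platelet-derived growth factors are dimers that bring pairs of receptor chains together, whereupon the chains phosphorylate each other and recruit signalling proteins. Pdgfa acts through Pdgfra, Pdgfb binds both receptors, and Pdgfc and Pdgfd are released with an N-terminal CUB domain that proteases must remove. Kit belongs to the same class of receptor tyrosine kinases and is bound by Kitl, also called stem cell factor. In the brain, Pdgfra marks oligodendrocyte precursors and fibroblast-like cells of the meninges and vessels, and Pdgfrb marks mural cells, the pericytes and smooth muscle cells that endothelial Pdgfb recruits. Kit is known from mast cells, melanocytes and some interneurons. PDGFRA is among the genes amplified in human glioblastoma, at times together with its neighbours KIT and KDR.

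Pdgfra and Kit lie beside each other on chromosome 5 of GRCm38, both on the plus strand, Pdgfra from 75152292 to 75198215 and Kit from 75574916 to 75656722, with 376700 bases between them. The DNA upstream of their start sites is shown because these neighbours had different patterns of RNA across the tumors. The windows run from 250 bases before the RefSeq start of each gene, on the plus strand of GRCm38.p6, and end before the first annotated exon base. The Pdgfra window is chr5:75152001-75152250 (250 bases) and the Kit window chr5:75574737-75574915 (179 bases), and capitals mark the GC box GGGCGG on either strand, with no overlap of matches.
Pdgfra: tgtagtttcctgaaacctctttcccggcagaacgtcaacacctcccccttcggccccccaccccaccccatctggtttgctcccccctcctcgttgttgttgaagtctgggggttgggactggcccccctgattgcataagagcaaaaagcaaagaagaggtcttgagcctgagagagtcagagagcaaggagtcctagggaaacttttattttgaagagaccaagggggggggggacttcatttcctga
Kit: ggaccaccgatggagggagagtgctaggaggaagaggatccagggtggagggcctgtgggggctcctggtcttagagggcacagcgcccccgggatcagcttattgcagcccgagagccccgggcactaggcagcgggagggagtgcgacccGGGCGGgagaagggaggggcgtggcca
The Kit window held 1 GC box and 10 CpG dinucleotides at a GC content of 69.3%. The Pdgfra window held 0 GC boxes and 4 CpG dinucleotides at a GC content of 54.4%. Of the 32851 mouse promoter windows of the same table, 20.9% held a GC box within 179 bases and 32.7% within 250 bases. At least 10 CpG dinucleotides were found in 25.1% of the windows of 179 bases, and at least 4 in 62.2% of those of 250 bases. The TATA box TATAAA and the E-box CACGTG, searched on both strands, were in neither window. Of all windows, 8.34% and 3.67% held them within 179 bases, and 12.4% and 6.02% within 250 bases.

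The 7 libraries held 7197692 to 18879762 reads on genes, and the 8 genes had between 18 reads (Pdgfd) and 17435 reads (Pdgfra) in a library. Values are normalized counts, which are reads divided by a size factor per library. Those of single tumors are given by replicate number, 2 to 4 for 3xCR and 1 to 4 for GPC6. Gpc6 ranged from 126 to 226 in 3xCR and from 263 to 5084 in the libraries labelled GPC6, where replicate 2 had the 263 and lay next to the 3xCR level. GPC6 replicate 1 stood apart on the first principal component (score 139.9, the others -98.0 to 43.5). Of 9 lists of cell type markers, the median difference in log2(normalized count + 1), GPC6 minus 3xCR, was 1.66 for neurons, 2.36 for interneurons, 0.32 for endothelial cells, 0.080 for astrocytes, -0.043 for mural cells, -0.09 for oligodendrocyte precursors, -0.41 for microglia and macrophages, -0.58 for proliferating cells and -1.68 for fibroblasts, against -0.019 over all 14782 genes with a mean of at least 10. The lists behind these medians hold Kit (interneurons), Pdgfra (precursors and fibroblasts) and Pdgfrb (mural cells). A score per library leaves the 8 genes out and is the mean over the markers of the log2 value minus each gene's mean. For proliferating cells and for fibroblasts 1 library stood apart. The proliferation score was -3.16 in GPC6 replicate 1, with 0.42 to 1.16 in the other GPC6 and -0.17 to 1.04 in the 3xCR libraries. The fibroblast score was 3.21 in 3xCR replicate 4, with -0.44 and 0.020 in the other 3xCR and -1.66 to 0.64 in the GPC6 libraries. In this bulk tissue, fewer cells of a type and less RNA per cell cannot be told apart.

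Kit RNA was higher in every GPC6 tumor than in every 3xCR tumor. Its level was 182, 183 and 116 in the 3xCR tumors, against 399, 369, 263 and 338 with GPC6. These rest on 84 to 373 reads per library. The groups did not overlap, with a gap from 183 to 263, and the means were 160 ± 38.4 (SD, n = 3) and 342 ± 58.0 (SD, n = 4). The difference was 1.10 on the log2(normalized count + 1) scale with a standard error of 0.27, a 2.15-fold higher level. It was between 0.89 (without 3xCR replicate 4) and 1.22 (without GPC6 replicate 3) when each library was left out in turn, and was 0.92 without GPC6 replicates 1 and 2. Of the 14782 genes tested, 2.80% had every GPC6 library above every 3xCR library and 3.52% had every one below (414 and 520 genes, so that 44.3% of these were higher, and 31.9% after scaling to equal upper quartiles). Among the 8 genes, Kit alone was of the first kind and 0 were of the second.

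Markers of several cell types also differed in their means between the groups. The mean log2 value of all 7 interneuron markers other than Kit was higher with GPC6, and their summed level was 336 to 1242 normalized counts in 3xCR and 997 to 11905 in GPC6 libraries, and that of all 10 neuronal markers was higher too (5292 to 9415 and 6713 to 60147). Over the 7 libraries, which share library and size factor, Kit had r = 0.64 with the interneuron score (0.43 to 0.87 with a library left out), r = 0.61 with the neuronal score and r = -0.78 with the microglia and macrophage score. These values are a description, since Kit was chosen on its group difference and the means of these markers differed too. For these scores r within the groups was not computed. GPC6 replicate 2 had an interneuron sum of 997 and 369 counts of Kit, and 3xCR replicate 2 had 1242 and 182. All 9 microglia and macrophage markers had a lower mean log2 value in GPC6 tumors, with summed levels of 19311 to 36335 normalized counts in 3xCR and 10537 to 17896 in GPC6 libraries. The part of these cell types in the result was not tested. The mast cell protease genes were at or near 0. Cpa3 (carboxypeptidase A3) had 0 to 12.4 normalized counts over the 7 libraries, Mcpt4 0 to 4.14 and Tpsb2 0 to 6.91, so that of the 8 mast cell markers besides Kit only Hdc, the histidine decarboxylase that histaminergic neurons also use, went above 12.4 in any library (5.93 to 153). Of these 8 markers, 0 were higher with GPC6 in their mean log2 value. Apart from Hdc, however, all had a mean under 10 and were not tested, so their directions rest on few reads. Hdc had a log2 difference of -0.14, but its mean normalized count was 35.3 in 3xCR and 59.5 in GPC6 tumors. The score of these markers rests mostly on such low counts, and the part of mast cells in the Kit level was not tested. As a description, since Kit was chosen on its group difference, r between Kit and the score of these markers was -0.76 over the 7 libraries, -0.49 after the mean of each group was subtracted, -0.91 without 3xCR replicate 2 and 0.24 without 3xCR replicates 3 and 4.

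**Figure D1:**
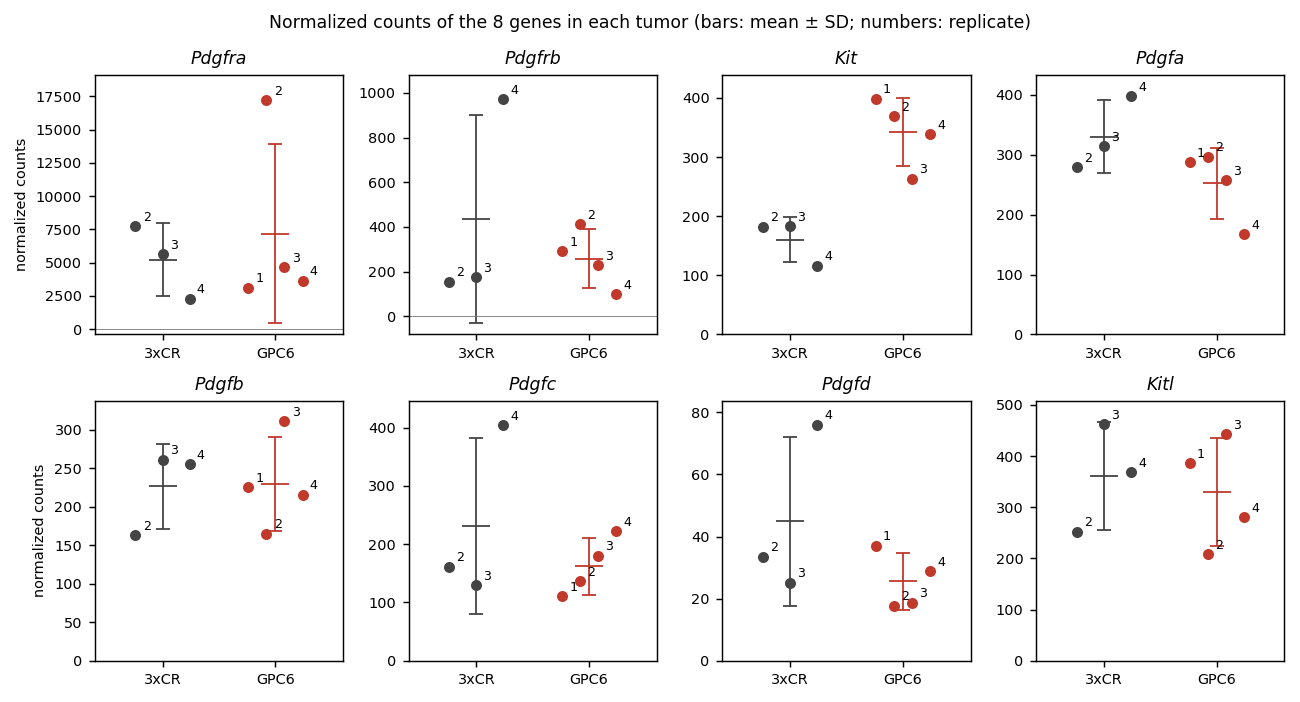
Normalized counts of each gene (vertical axes, linear) in the 3xCR tumors (grey) and GPC6 tumors (red), with a numbered point for each library and bars for mean ± SD. The Kit values of the groups are apart (116 to 183 and 263 to 399), whereas the other 7 genes overlap, with single high libraries for Pdgfra (GPC6 replicate 2, 17225) and Pdgfrb (3xCR replicate 4, 971).

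Pdgfra was the most abundant of the 8 genes and followed the markers of oligodendrocyte precursors from tumor to tumor. It had 7730, 5657 and 2309 normalized counts in the 3xCR tumors, against 3136, 17225, 4681 and 3662 with GPC6. The groups overlapped, and the highest and the lowest library were 7.46-fold apart. The highest, GPC6 replicate 2, was also the GPC6 library with the least Gpc6. The mean was 5232 ± 2735 (SD, n = 3) in 3xCR and 7176 ± 6730 (SD, n = 4) in GPC6 tumors, and the log2 difference of 0.24 (standard error 0.66) turned to -0.30 without GPC6 replicate 2.

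The score of 9 other precursor markers (Cspg4, Olig1, Olig2, Sox10, Gpr17, Cacng4, Lhfpl3, Matn4 and Neu4) was 0.90, 0.24 and -0.81 in the 3xCR tumors, against -1.10, 1.37, -0.31 and -0.29 with GPC6. Both it and Pdgfra were highest in GPC6 replicate 2 and next highest in 3xCR replicate 2. Over the 7 libraries Pearson r was 0.95 (two-sided exact permutation p = 0.00119, adjusted p = 0.00595 over 5 relations) and Spearman rho 0.93 (p = 0.00675, adjusted p = 0.0337). Without the 2 libraries farthest from the median score, GPC6 replicate 2 and 3xCR replicate 2, r was 0.84, and after the mean of each group was subtracted it was 0.98. Over the alternatives r ranged from 0.92 to 0.97. Olig2, a transcription factor of the oligodendrocyte lineage that is also expressed in gliomas, reached 6658 in GPC6 replicate 2 against 1297 in replicate 1 of that group, and Sox10 had 8050 and 1553. Pdgfra and the markers share library, size factor and tissue piece, and tumor cells and precursors of the surrounding brain were not separated. Pdgfra shares 456 exon bases with the antisense gene Gm42802, whereas Kit shares none with another gene.

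Pdgfrb differed 9.93-fold between its highest and lowest library. It had 155, 176 and 971 normalized counts in the 3xCR tumors, against 291, 413, 229 and 97.7 with GPC6. The tumor 3xCR replicate 4 lay above all others, and the remaining libraries of the groups overlapped. The means were 434 ± 465 (SD, n = 3) and 258 ± 131 (SD, n = 4), and the log2 difference of -0.39 (standard error 0.73) became 0.46 without 3xCR replicate 4. The score of 9 other mural cell markers was not found to vary with Pdgfrb (Pearson r = 0.43, two-sided exact permutation p = 0.345, adjusted p = 0.431, and Spearman rho = 0.21, p = 0.662, adjusted p = 0.662, r = 0.33 without GPC6 replicates 1 and 4). Cspg4, the most abundant of these markers, is also in the precursor list. The 7 fibroblast markers other than Pdgfra summed to 47292 normalized counts in 3xCR replicate 4 and 3970 in GPC6 replicate 2. The sum was 418 to 1550 in the other 5 libraries, with 476 in GPC6 replicate 1, the next highest in Pdgfrb. Collagens made up most of it in 3xCR replicate 4, with 16800 of Col1a2 and 19289 of Col3a1. Slc6a13 was lowest in that library (4.14) and highest in 3xCR replicate 2 (75.1), whereas every other one of the 7 was highest in 3xCR replicate 4. Col1a1, a chain of type I collagen, had 9756 in 3xCR replicate 4, 1073 in GPC6 replicate 2 and 40.2 to 286 elsewhere. As a description, r between Pdgfrb and the fibroblast score was 0.89 over the 7 libraries and 0.67 without 3xCR replicate 4. This library had a fibroblast score of 3.21, against at most 0.64 in the others, and the part of fibroblasts in the Pdgfrb level was not tested.

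**Figure D2:**
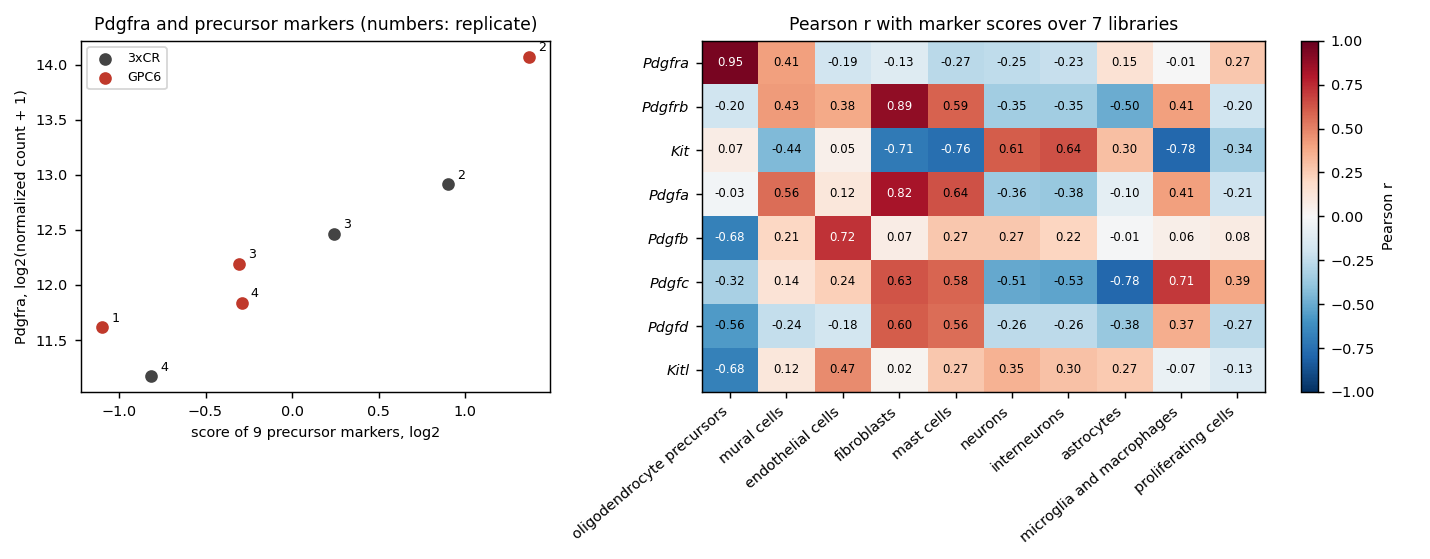
Left, Pdgfra as log2(normalized count + 1) against the log2 score of 9 precursor markers, 1 point per library numbered by replicate (grey 3xCR, red GPC6), where r is 0.95. Right, Pearson r over the 7 libraries of each gene (rows) with the score of each marker list without the 8 genes (columns), where the highest values are those of Pdgfra with precursor markers (0.95) and Pdgfrb with fibroblast markers (0.89).

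The SD of the log2 value over the 7 libraries was 1.08 for Pdgfrb and 0.96 for Pdgfra and smaller for every ligand, down to 0.34 for Pdgfb. The ligand genes lie on chromosomes 5 (Pdgfa, 138976014 to 138997370), 15 (Pdgfb, 79995874 to 80014977), 3 (Pdgfc, 81036416 to 81214040), 9 (Pdgfd, 6168584 to 6378850) and 10 (Kitl, 100015630 to 100100416) of GRCm38. Pdgfa, whose homodimer activates Pdgfra, had 279, 314 and 398 normalized counts in the 3xCR tumors, against 287, 296, 257 and 168 with GPC6. All libraries lay within a 2.37-fold range, and the groups overlapped between 279 and 296. Without 3xCR replicate 2 the Pdgfa values of the groups no longer overlapped, where 20.9% of all genes tested were of this kind, both directions together. The log2 difference of Pdgfa was -0.41 (standard error 0.28) and -0.22 to -0.52 with a library left out, with means of 330 ± 61.0 (SD, n = 3) and 252 ± 58.8 (SD, n = 4). Pdgfa was highest in 3xCR replicate 4, and without that library its difference was -0.27. As a description, r between Pdgfa and the fibroblast score was 0.82 over the 7 libraries (0.78 to 0.93 with a library left out). The part of fibroblasts in the Pdgfa level was not tested. Pdgfa overlaps the antisense gene 6330403L08Rik in 813 exon bases, and whether the counting used the strand is not stated.

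Pdgfb, which endothelial cells release towards mural cells, had 163, 261 and 256 normalized counts in the 3xCR tumors, against 226, 165, 311 and 216 with GPC6. Its groups overlapped almost entirely, with means of 227 ± 55.0 (SD, n = 3) and 230 ± 60.7 (SD, n = 4) and a log2 difference of 0.012 (standard error 0.30), which was -0.032 after scaling to equal upper quartiles and -0.21 without 3xCR replicate 2. Pdgfb and the score of 10 endothelial markers had r = 0.72 (two-sided exact permutation p = 0.0532, adjusted p = 0.0886) and rho = 0.68 (p = 0.110, adjusted p = 0.274), and r was 0.096 without 3xCR replicate 2 and GPC6 replicate 3. Without GPC6 replicate 2 r was 0.98 with an adjusted exact p of 0.0278, so this relation depended on single libraries.

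Pdgfc, a ligand of Pdgfra that the protease tPA activates, had 161, 129 and 405 normalized counts in the 3xCR tumors, against 111, 136, 180 and 222 with GPC6. Pdgfd, a ligand of Pdgfrb, was the lowest gene, with 33.4, 25.1 and 76.0 in the 3xCR replicates and 37.1, 17.8, 18.6 and 28.8 in the GPC6 replicates in the same order. Both were highest in 3xCR replicate 4, as were Pdgfrb and Pdgfa, and the values of both overlapped between the groups. Their log2 differences were -0.37 (standard error 0.45) and -0.69 (standard error 0.53), which became 0.12 and -0.24 without that library. Pdgfc shares 147 exon bases with the antisense gene Gm16000.

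Kitl had 252, 462 and 369 normalized counts in the 3xCR tumors, against 386, 208, 443 and 281 with GPC6. The groups overlapped over most of their range, in contrast to its receptor Kit, with means of 361 ± 105 (SD, n = 3) and 330 ± 105 (SD, n = 4) and a log2 difference of -0.15 (standard error 0.34) that was 0.053 without GPC6 replicate 2. Kitl was not found to vary with the score of 10 neuronal markers (r = 0.35, two-sided exact permutation p = 0.432, adjusted p = 0.432, and rho = 0.32, p = 0.498, adjusted p = 0.622, with r = -0.26 without GPC6 replicates 1 and 3). The Kitl to Kit ratio per kilobase of exon was 2.09, 3.80 and 4.79 in the 3xCR tumors (replicates 2, 3 and 4) and 1.46, 0.85, 2.53 and 1.25 in the GPC6 tumors (replicates 1 to 4). The ratios of the groups overlapped between 2.09 and 2.53, and the Kit values that form the ratio are those used to choose the gene.

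**Figure D3:**
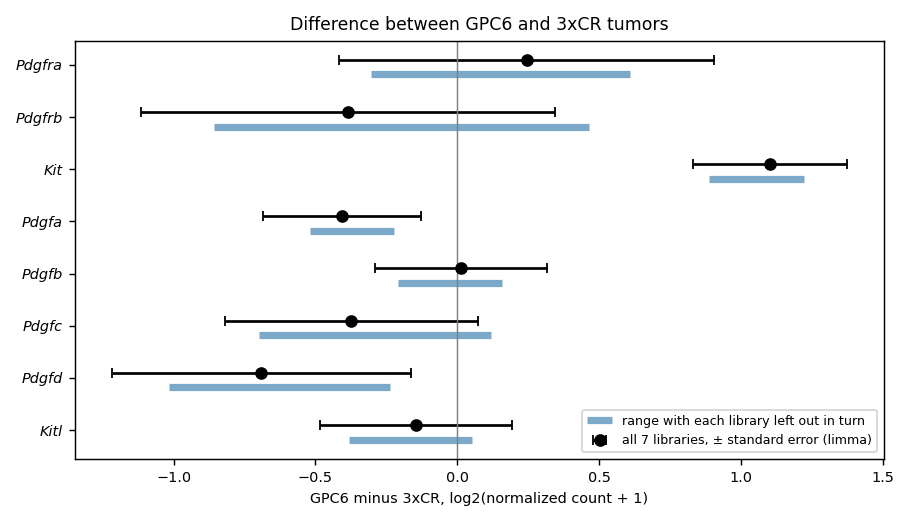
Difference between GPC6 and 3xCR tumors in log2(normalized count + 1) for each gene (horizontal axis), with points for all 7 libraries, black bars for ± 1 standard error (limma) and blue bars for the range with each library left out in turn. Kit lies at 1.10 with a range of 0.89 to 1.22, and the ranges of Pdgfra, Pdgfrb, Pdgfb, Pdgfc and Kitl cross 0.

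In the comparison across all genes, limma called 0 of 14782 genes at an adjusted p under 0.05 (0%). Without adjustment, 689 genes had a p under 0.05. On the reads recovered from the table, edgeR and voom called 0 genes (991 and 499 without adjustment) and DESeq2 called 4 (1853 without adjustment). These were Met, Nupr1, Rn45s and D830030K20Rik, named after their values were seen. The median log2 difference of the 8 genes was -0.26 (-0.019 over all genes), with 3 higher and 5 lower means in the GPC6 tumors.

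Levels of different genes were compared per kilobase of exon, with all annotated exons of a gene joined. Pdgfra was first in all 7 libraries, with a median of 467 normalized counts per kilobase (range 230 to 1718). Pdgfa followed with a median of 92.2 and a lowest level of 53.8. Pdgfra exceeded Pdgfa by 2.52 ± 1.04 on the log2 scale (SD of the paired differences, n = 7, two-sided exact permutation test, adjusted p = 0.0273 over 28 pairs), and Pdgfa exceeded Kitl by 0.67 ± 0.50 (exact permutation, adjusted p = 0.0273), each in 7 of 7 libraries. Kitl (median 62.4), Pdgfb (54.2), Pdgfrb (41.8), Pdgfc (31.7) and Kit (29.6) followed in the order of their mean log2 levels. No neighbours from Kitl to Pdgfc differed beyond their spread, with adjusted p of 0.490 for Kitl and Pdgfb, 0.641 for Pdgfb and Pdgfrb and 0.273 for Pdgfrb and Pdgfc in the exact permutation test. Pdgfd was last (median 9.13), below Kit by 1.47 ± 1.21 on the log2 scale in 6 of 7 libraries, given as a description. In 3xCR replicate 4 Pdgfd was the higher of these genes (24.1 against 13.0 for Kit). The place of Kit pools groups that differ, since it had 13.0 to 20.6 per kilobase in 3xCR and 29.6 to 44.8 in GPC6 tumors. That difference is the one it was chosen on, so the pairs with Kit are a description and no test of its level. Of all 28 pairs, those with Kit included, 19 passed, where 0.0156 is the smallest p that 7 libraries allow before adjustment. With the longest transcript of each gene as its length 19 pairs passed too, but Pdgfb then came before Kitl and Pdgfc before Pdgfrb.

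**Figure D4:**
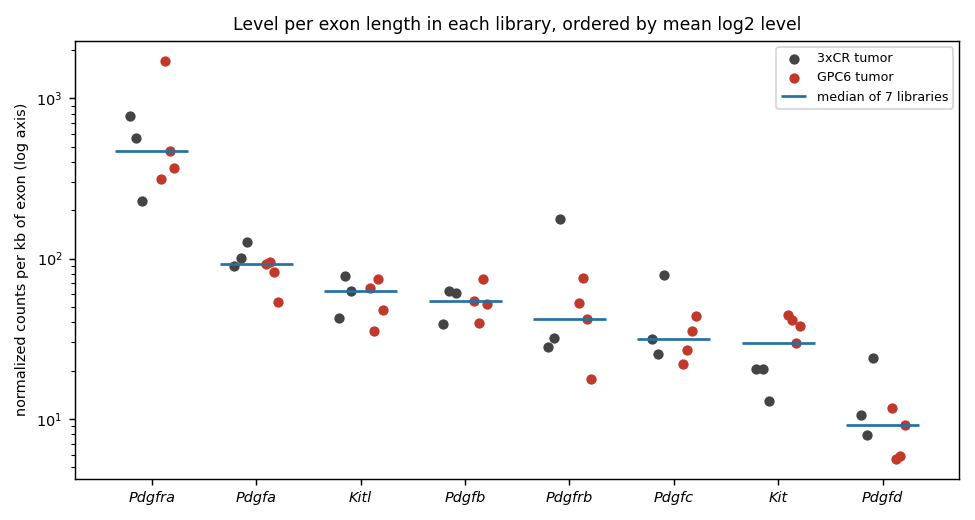
Normalized counts per kilobase of exon (log axis) for each gene in the order of the mean log2 level, with a point for each library (grey 3xCR, red GPC6) and a line at the median of the 7. Pdgfra (230 to 1718) lies above all other genes in every library, and the genes from Kitl to Kit overlap.

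Among the receptors, Pdgfra made up 94.1%, 91.5% and 54.8% of the summed level per kilobase of Pdgfra, Pdgfrb and Kit in the 3xCR tumors, against 76.2%, 93.6%, 86.7% and 86.7% with GPC6. The exception was 3xCR replicate 4, where Pdgfra was 1.30 times the level of Pdgfrb per kilobase, against 5.90 to 27.3 times in the other 6 libraries. Among the PDGF ligands, Pdgfa made up 33.9% to 56.9% of the summed level per kilobase, and the sum of the 4 ligands ranged from 158 to 199 in 6 libraries and was 293 in 3xCR replicate 4. The tumor with the least Pdgfra per Pdgfrb was therefore also the one with the highest sum of ligands.

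Pairs of the 8 genes varied together to very different degrees over the 7 libraries, on the log2(normalized count + 1) scale and as a description, since the libraries and size factors are shared. The highest r was that of Pdgfb with Kitl (0.91), followed by Pdgfrb with Pdgfa (0.82), and the lowest was that of Pdgfra with Pdgfd (-0.71). Pdgfra and Kit had r = 0.32, and Kit with its ligand Kitl had r = -0.29. For each of the 8 genes, those of highest r out of 14782 were picked over only 7 libraries, so r near 1 comes with the picking. These r are no evidence of a relation. Kit was also chosen on its group difference, which favours genes that differ between the groups. Of all genes tested, those most like Kit were Phf2, a histone demethylase (r = 0.99), Trrap, a scaffold of histone acetyltransferase complexes (0.99), and Heatr5b (0.98). Phf2 ranged from 609 to 708 normalized counts in 3xCR and from 762 to 875 in GPC6 tumors, a narrower range than that of Kit. Those most like Pdgfra were Fat1, an atypical cadherin (0.99), Ctnnal1 (0.99) and D630003M21Rik (0.99). For Pdgfrb they were Grk5, a kinase of G protein-coupled receptors (0.99), Ctsk, the collagen-degrading cathepsin K (0.98), and Ltbp2, a matrix protein of the latent TGF-beta binding family (0.98), and Ltbp2 had 206 normalized counts in 3xCR replicate 4 and 4.12 to 43.5 in the others. Of the ligands, Pdgfa was followed by Myg1 and Poldip3 (0.98 and 0.97), Pdgfb by Smyd5, Ccm2l and Rph3al (0.94 to 0.96), Pdgfc by Pcdh18, Gas1 and Dennd1c (0.97 to 0.98), Pdgfd by Srp9, Rp9 and Ctbs (0.97 to 0.99) and Kitl by Cox7b, Utrn and Prosc (0.94 to 0.995).

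Of 52 other genes of the pathway in 5 lists, limma called 0 at an adjusted p under 0.05, and the median log2 difference was -0.089 (-0.019 over all genes). The GPC6 values were all above the 3xCR values for 3 of the 52 (Plcg1, Egr1 and Egr3, against 2.80% of all genes) and below for 2 (St14 and Dok1, against 3.52%). Among the 5 related receptors and ligands, of which 1 had a higher and 4 a lower mean in GPC6 tumors, Csf1r, the receptor of CSF1 on microglia, was the most abundant (2539 to 3491 normalized counts in 3xCR and 2536 to 2838 in GPC6 libraries), and Flt3 and Flt3l had the extreme log2 differences of 0.26 and -0.61. Of the 7 genes of ligand processing and co-receptors 1 was higher and 6 lower. Lrp1, a receptor that modulates PDGF signalling, was the highest with a log2 difference of 0.08 (standard error 0.28), and Plau, which encodes the protease urokinase, the lowest with -1.18 (standard error 0.80).

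The 22 adaptors and enzymes that bind activated receptors had 7 higher and 15 lower means. Plcg1, a phospholipase recruited by both receptor types, ranged from 514 to 624 normalized counts in 3xCR and from 656 to 761 in GPC6 tumors, a log2 difference of 0.32 (standard error 0.18). Fyn was the most abundant of them and reached 11578 in GPC6 replicate 2 and 10402 in 3xCR replicate 2, the libraries that were also highest in Pdgfra, against 2510 to 3714 in the others. Lyn, a Src kinase of myeloid cells, had the lowest log2 difference of the list (-0.93, standard error 0.46). Of the 8 negative regulators 3 were higher and 5 lower, with log2 differences from -1.23 (Dok1, a docking protein of blood cells) to 0.41 (Cbl, a ubiquitin ligase for activated receptors) and 0.15 for Ptprj, a receptor phosphatase and the most abundant. Of the 10 early response genes, which growth factors induce but neuronal activity induces as well, 7 were higher and 3 lower. Egr3 had the largest log2 difference of the 52 (2.72, standard error 0.75), with a range from 23.5 to 105 normalized counts in 3xCR and from 158 to 841 in GPC6 tumors, the highest in the libraries with the highest neuronal scores (replicates 1 and 3), and the part of neurons in it was not tested. Myc, the most abundant, had a log2 difference of 0.04 and 3820 normalized counts in GPC6 replicate 4, and Ier2 had the lowest difference of this list (-0.56).

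The genes on chromosome 5 around Pdgfra and Kit were examined in their order. Kit alone of the 11 genes from Scfd2 to Clock had groups that did not overlap, and the log2 differences of the 8 other tested genes besides Pdgfra ranged from -0.43 (Chic2) to 0.43 (Scfd2), while Gsx2 was too low to be tested (highest 14.0 normalized counts, in 3xCR replicate 3). The next gene after Kit, Kdr, the VEGF receptor of endothelial cells, had 140, 153 and 171 normalized counts in the 3xCR tumors, against 119, 246, 321 and 193 with GPC6, which overlap. In GPC6 replicate 2 all 11 genes were above their own mean over the 7 libraries, by 0.061 (Tmem165) to 1.75 (Pdgfra) on the log2 scale, whereas 47.8% of all genes tested were. The 11 include Gsx2, which is not among the genes tested. They also include Kit, which was chosen on its group difference and was above its mean in every GPC6 library. In the other libraries 2 to 7 of the 11 were above their mean. The pattern of replicate 2 was picked out after the values had been seen. Counts of RNA do not measure the number of gene copies.

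**Figure D5:**
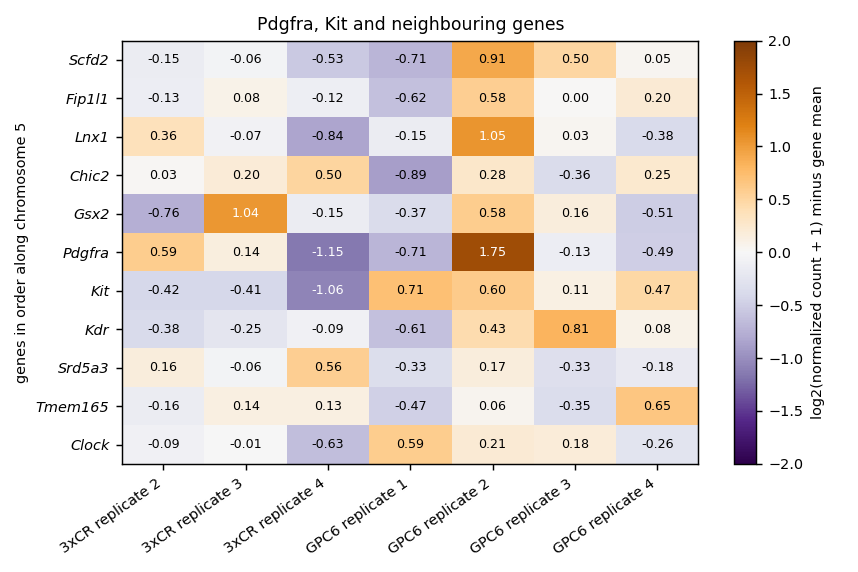
Deviation of each gene from its own mean over the 7 libraries, log2(normalized count + 1), for 11 genes in their order along chromosome 5 (rows) in each library (columns). The column of GPC6 replicate 2 is above 0 in every row and highest at Pdgfra (1.75), and the Kit row is below 0 in the 3xCR and above 0 in the GPC6 libraries.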

How the data were processed

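Stranded poly(A) RNA libraries of 3 3xCR and 4 GPC6 tumors were sequenced. Alignment by the authors used STAR 2.5.0a and mm10, and they divided gene counts by the size factors of DESeq2 1.20.0, and this normalized signal, not corrected for length, was deposited. Of 19282 entries, 25 had names turned into dates (0.254% to 0.361% of the reads) and were left out, and 0 further columns were present. All values (100%, within 0.01) were whole multiples of 1 read, so that a count of 0 allows 1.64 to 4.64 normalized counts (3 reads, counting error only). Groups and replicate numbers came from the sample titles, and no batch is named.

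The groups were compared with limma 3.58.1 in R 4.3.3, with a variance trend and log2(normalized count + 1) as the measure, over genes with a mean of at least 10, with Benjamini-Hochberg adjustment. Fold changes on this scale understate those of low genes. Alternatives on the recovered reads used edgeR 4.0.16, voom and DESeq2 1.42.0. Others were pseudocounts of 0.5 and 5, other filters and scalings, leaving out each library, and a block for the replicate number. Levels per kilobase were compared with exact sign-flip permutation tests, where the pairs with Kit are given as a description. For 5 relations of a gene to a marker list exact permutation tests of r were used, adjusted over the 5, of which that of Kit is given as a description. Libraries are single animals, and p-values measure the spread between them.

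The genes and lists were chosen with earlier results of these data known. Named were the 8 genes, from each pathway list the most abundant gene and those of largest and smallest log2 difference, the neighbours of Pdgfra and Kit, and the 3 genes most like each of the 8, of which 1 is not reported here. St14, Egr1 and the examples Olig2, Sox10, Col1a1 and Tpsb2 were named after their values were seen. Exons and coordinates are from GENCODE M21 (GRCm38), where 95.8% of the symbols matched, and promoter sequences from RefSeq (GRCm38.p6), which held 6 of the 8 genes.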

Additional observations from a re-analysis of the deposited data

Results flagged for a closer look

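One of 24 quantities looked at in the 4 GPC6 libraries (the 8 genes on the log2 scale, 10 marker scores and 6 ratios) had a library far from the rest by Dixon's 95% critical value, where chance gives about 1.2. The score of 9 markers of proliferating cells was -3.16 in GPC6 replicate 1, while the other 3 libraries of the group had 0.42 to 1.16 and the 3xCR libraries -0.17 to 1.04. Kit had 399 normalized counts in that library and 263 to 369 in the other GPC6 libraries. The Pdgfra value of GPC6 replicate 2 (17225) had a gap to the nearest library of 0.76 of the range on the log2 scale, under that critical value, and of 0.89 on the linear scale, above it.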

How the results depend on the processing

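The count of genes at an adjusted p under 0.05 was 0 in limma, edgeR and voom under all settings run, and 4 in DESeq2. The count whose groups do not overlap was 934, ranged from 1165 (without 3xCR replicate 4) to 3098 (without 3xCR replicate 2) with 1 library left out, where fewer libraries have to be apart, and was 1623 without 3xCR replicate 3, 2385 without GPC6 replicate 2, 2128 without GPC6 replicate 4 and, as an alternative added after seeing the data, 3471 without GPC6 replicates 1 and 2. The pairs of levels that passed numbered 19, those with Kit included, and between 0 and 20 with 1 library left out. With 6 libraries no p under 0.0312 is possible before adjustment in the exact permutation test. Without 3xCR replicate 2 or 3 or GPC6 replicate 1, 3 or 4, 0 pairs passed, with a smallest adjusted p of 0.0515 to 0.0547. It was 0.044 without 3xCR replicate 4 (20 pairs passed) and 0.0486 without GPC6 replicate 2 (18 pairs passed). The relation of Kit to mast cell markers ranged from r = -0.91 (without 3xCR replicate 2) to -0.46, and that of Pdgfb to endothelial markers from 0.56 to 0.98 (without GPC6 replicate 2). Same-numbered tumors had correlations of their deviations of -0.19, 0.12 and 0.30, and not every tumor correlated best with its own number. The labels state no pairing, and so few values cannot show whether the numbers pair the tumors. With a replicate block 0 genes were called and Kit had a log2 difference of 1.02. The smallest library, with 7197692 reads, limits genes as low as Pdgfd.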
